A study of Danio rerio with 96 samples.

Results

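The genes described here are 43 genes of DNA damage signalling and repair, chosen by name from the 25907 genes of the count table, with earlier results of these libraries known. All 43 names were found, each with 1 Ensembl gene ID, and *mre11a* was found under the shared name MRE11. By role they comprise 5 genes of the checkpoint kinases and their activator, 9 genes that act in the chromatin at breaks, 12 of homologous recombination, 3 of the Fanconi anemia pathway, 5 of non-homologous end joining, 3 of single-strand break repair, 2 of nucleotide excision repair, 2 translesion polymerases, 1 subunit of ribonucleotide reductase and 1 gene of mismatch repair. Whole-body RNA of 1 larva gave 1 library, and all groups were albino zebrafish (*slc45a2* b4/b4). Control larvae (Cont) were left untreated, XR larvae received 8 Gy of X-rays at 36 hours post fertilization (hpf), FA larvae were kept in 200 μM folic acid from 35 hpf, and FA + XR larvae received both. Each of the 4 groups had 6 libraries at 36, 37, 60 and 84 hpf, so the last 3 time points fell 1, 24 and 48 h after irradiation, and n = 6 holds for every group. The sources do not say on which side of the irradiation the 36 hpf larvae were collected. Each group was held in its own well, so that well and treatment cannot be told apart and p values cover only the spread between larvae.

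A double-strand break is bound by the MRN complex (Mre11, Rad50 and Nbn), which recruits the kinase Atm, while stretches of single-stranded DNA recruit Atr. Atm phosphorylates the histone variant H2ax, Mdc1 binds the phosphorylated histone, and the ubiquitin ligases Rnf8 and Rnf168 then mark the surrounding chromatin. The break is joined directly after binding of the Ku heterodimer or, in S and G2 phase, copied from the sister chromatid by homologous recombination. Much of this response works through modification of proteins already present, whereas some repair genes are also transcribed more after damage, often through p53. Many recombination and mismatch repair genes are transcribed most in dividing cells.

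Library totals spanned 243126 to 16470291 counts (median, 3477936), and 13 libraries (0, 6, 4 and 3 at the 4 time points) had less than 50% of the median of their time point. Levels are given as CPM, counts scaled to a common library size with TMM factors over all 96 libraries, and are not divided by transcript length, so they are compared between groups and not between genes. Of the 43 genes, 8 had a count in every library, 16 had a mean count below 10, and 39, 39, 40 and 39 reached the mean count of 2.5 needed for a test at 36, 37, 60 and 84 hpf. *bard1*, in human cells the partner of BRCA1, had a count in 32 libraries and *polk*, a translesion polymerase, in 15, and neither was tested at any time. *rad50* was tested only at 60 hpf, *atr* only at 60 and 84 hpf, and *xrcc2*, a gene of homologous recombination, only at 36 and 37 hpf within a time point. Of 32 marker genes 28 were found by name, with 35 IDs, and all these IDs of 8 larval cell types (lens, neuron, fast muscle, epidermis, liver, cartilage, hatching gland and erythrocyte) had counts. RNA came from whole larvae, so that fewer cells expressing a gene and less RNA per cell cannot be told apart.

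The first question is which repair genes differed after irradiation. The mean irradiation effect is the average of the 2 log2 fold changes XR / Cont and FA + XR / FA, in edgeR's quasi-likelihood test of the 24 libraries of a time point, and a gene is called where the Benjamini-Hochberg adjusted p over all genes is below 10%. At 37 hpf, 1 h after irradiation, no repair gene was called. At 60 hpf, 24 h after it, *rnf169* and *xrcc5* were higher, and at 84 hpf, 48 h after it, *xrcc5*, *xrcc6* and *rnf169* were higher. No member was lower by this test at any time. Of these *rnf169* acts in the chromatin at breaks, and *xrcc5* and *xrcc6* act in end joining.

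Read against all genes, 36 of 14380 (0.25%) were called at 37 hpf, where 0 of 39 repair genes were called and none had an unadjusted p below 0.05 by edgeR or by DESeq2. At 60 hpf 2 of 40 repair genes were called, both higher, and 1.67% of 16319 genes were called, 0.686% higher. At 84 hpf 3 of 39 were called, all higher, and 4.32% of 16127 genes were called, 1.83% higher. The median log2 effect of the tested members at 37, 60 and 84 hpf was 0.02, 0.19 and 0.19, beside -0.01, 0.02 and 0.01 over all genes. Estimates above 0 numbered 23 of 39, 25 of 40 and 27 of 39 at these times. At 36 hpf 0 of 39 members were called (all genes, 0%), 2 had an unadjusted p below 0.05 by edgeR, *ddb2* (log2 0.60, SE 0.24) and *exo1* (log2 -0.55, SE 0.26), and DESeq2 called none with 2 below that p.

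*rnf169* encodes a ubiquitin-binding protein that, in human cells, recognizes the mark set by Rnf168 and limits the gathering of TP53BP1 at breaks. At 60 hpf its lowest, median and highest CPM were 0, 3.19 and 4.78 in Cont and 5.13, 9.23 and 13.4 in XR. They were 0.538, 3.24 and 7.43 in FA and 3.5, 8.46 and 10.8 in FA + XR. All 6 XR larvae lay above every Cont larva. FA + XR and FA overlapped, and the highest FA value came from 6 counts in a library of 767872 counts. Of the 12 irradiated larvae 12 lay above the unirradiated median and 9 above the unirradiated maximum. At 60 hpf the uncalled *chek2* and *mre11a* also had 12 above the unirradiated median, with 0 above the unirradiated maximum. *mdc1* and *rad54l*, not called either, had 11 above the median. How often this occurred over all genes was not determined. For *rnf169* the mean irradiation effect was a 2.45-fold rise (log2 1.29, SE 0.27, adjusted p = 0.00646). By itself XR vs. Cont gave log2 1.54 (SE 0.39, adjusted p = 0.0776), and this call was lost without the low-depth libraries (log2 1.46, adjusted p = 0.142). FA + XR vs. FA gave log2 1.04 (SE 0.38, adjusted p = 0.222), which did not pass, but it passed without the low-depth libraries (adjusted p = 0.0982).

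At 84 hpf the CPM of *rnf169* were 1.99, 3.13 and 3.96 in Cont and 4.60, 5.13 and 12.4 in XR. They were 0, 4.45 and 7.34 in FA and 4.09, 5.30 and 12 in FA + XR. Again all XR larvae lay above all Cont larvae, and FA and FA + XR overlapped widely. By edgeR neither XR vs. Cont nor FA + XR vs. FA was called for *rnf169* by itself. DESeq2 called XR vs. Cont (log2 1.07, adjusted p = 0.0927). The highest XR value rests on 14 counts in a library of 700645 counts, and the values 0 and 7.34 in FA on 0 and 5 counts in libraries of 680281 and 423265. The mean effect was 1.73-fold (log2 0.79, SE 0.26, adjusted p = 0.0885), close to the threshold. It was not called without the low-depth libraries (adjusted p = 0.109) or with voom and quality weights (0.119). Leaving out 1 library at a time, the call was lost in 13 of 24 fits. These libraries were the 5 Cont libraries of 3672662, 3762373, 4286073, 4318873 and 6021541 counts, the XR libraries of 700645 and 5428850, the FA libraries of 680281, 1841446 and 4175568, and the FA + XR libraries of 3559299, 3785661 and 3857260, with adjusted p from 0.102 to 0.224. At 36 and 37 hpf the medians of *rnf169* lay between 1.31 and 2.95 in all groups.

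*xrcc5* encodes the larger subunit of the Ku heterodimer, the ring that binds broken ends. At 84 hpf its CPM were 21.3, 23.6 and 24.9 in Cont and 23, 34.4 and 43.1 in XR. They were 21.6, 24.8 and 28.1 in FA and 32.8, 37.6 and 43.5 in FA + XR. Of the 12 irradiated larvae 11 lay above the highest of the 12 unirradiated larvae, and the exception was the XR library of 700645 counts, with 26 counts for *xrcc5*. The mean effect was 1.48-fold (log2 0.57, SE 0.097, adjusted p = 0.000116). *xrcc5* also passed in XR vs. Cont (log2 0.55, SE 0.13, adjusted p = 0.0246) and in FA + XR vs. FA (log2 0.59, SE 0.14, adjusted p = 0.0228), comparisons that share no library. Both were tested in the fit of all 24 libraries, so their error is shared. Over the 7 alternatives of each, with the fit of its 12 libraries among them, the highest adjusted p was 0.0753 and 0.0683.

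At 60 hpf the CPM of *xrcc5* were 16.1, 21.6 and 37.8 in Cont and 33.4, 37.8 and 43.3 in XR, and 6.19, 21.1 and 30.3 in FA and 30.1, 37.3 and 42 in FA + XR. All 12 irradiated larvae lay above the unirradiated median, as they did for the uncalled *chek2* and *mre11a*. For *xrcc5* 1 Cont and 1 FA larva reached into the irradiated range. The lowest FA value comes from 5 counts in a library of 767872 counts. The mean effect was 1.63-fold (log2 0.70, SE 0.16, adjusted p = 0.0138). FA + XR vs. FA passed narrowly (log2 0.77, SE 0.22, adjusted p = 0.0992) and did not pass without the low-depth libraries (log2 0.64, adjusted p = 0.114), without the filter on counts (0.107) or in a fit of its 12 libraries alone (0.319). XR vs. Cont gave log2 0.64 (SE 0.22, adjusted p = 0.485). At 37 hpf the medians of the 4 groups lay between 27 and 34 CPM and the mean effect was log2 0.00 (SE 0.18).

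*xrcc6*, the smaller Ku subunit, was called at 84 hpf alone. Its CPM there were 8.08, 13.2 and 17.3 in Cont and 15.8, 16.6 and 20.4 in XR, and 7.49, 10.3 and 14 in FA and 11.3, 17.4 and 20.4 in FA + XR. Of the 12 irradiated larvae 11 lay above the unirradiated median and 5 above the unirradiated maximum, so the groups overlapped more than for *xrcc5*. At this time *nbn*, which was not called, also had 11 irradiated larvae above the unirradiated median, with 0 above the maximum. The mean effect on *xrcc6* was 1.40-fold (log2 0.48, SE 0.14, adjusted p = 0.0391). Neither XR vs. Cont (log2 0.42, SE 0.19, adjusted p = 0.482) nor FA + XR vs. FA (log2 0.55, SE 0.20, adjusted p = 0.282) passed by itself. At 60 hpf the mean effect of *xrcc6* was log2 0.20 (SE 0.16, adjusted p = 0.73).

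**Figure D1:**
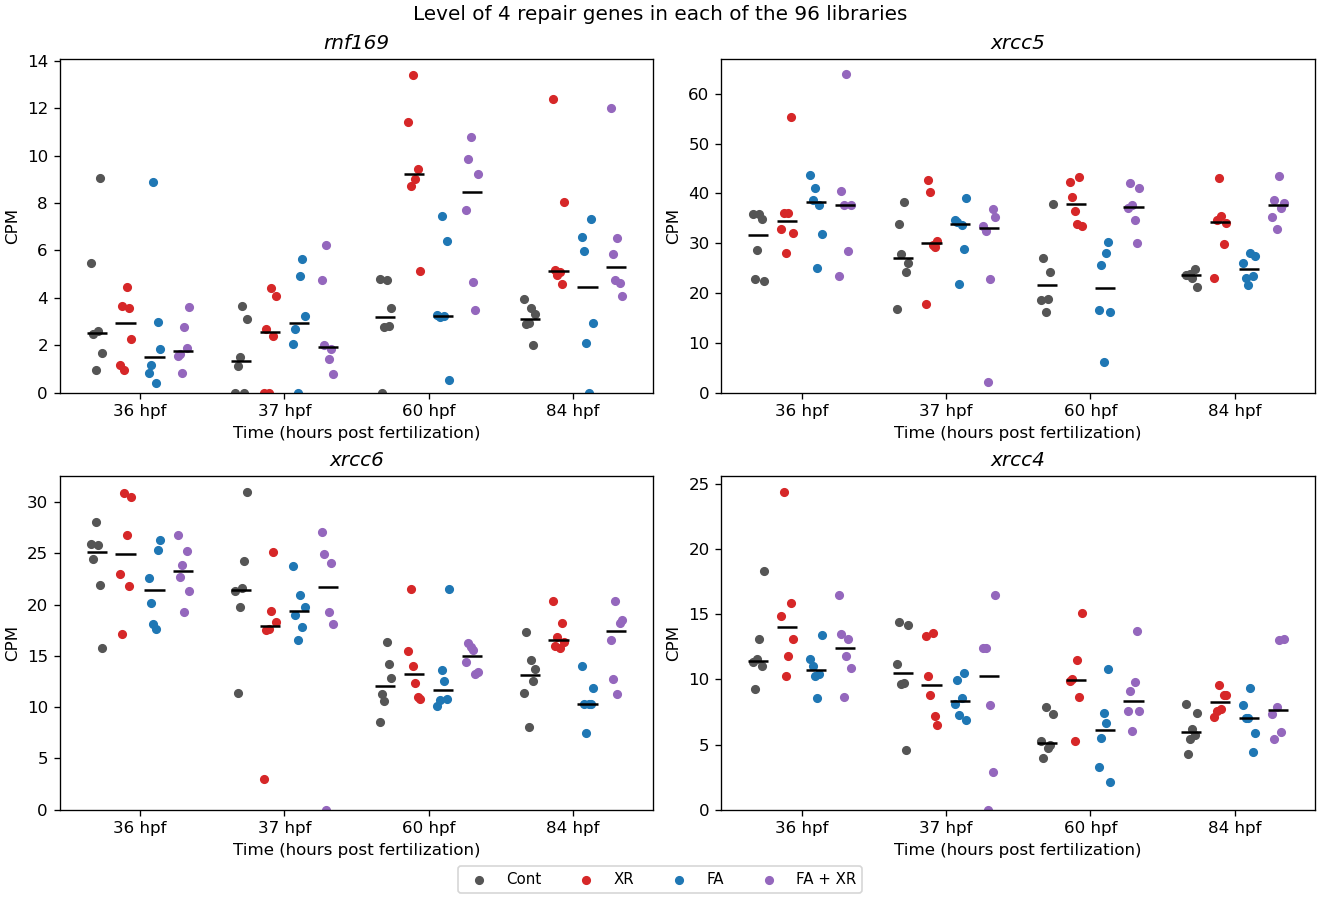
CPM of *rnf169*, *xrcc5*, *xrcc6* and *xrcc4* in each of the 96 libraries by group and time (hpf), with each point a larva and each black line the median of 6. At 60 and 84 hpf every XR value of *rnf169* lies above every Cont value, and at 84 hpf 11 of 12 irradiated values of *xrcc5* lie above all unirradiated values.

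The remaining end joining genes did not pass. *xrcc4*, which holds the ligase Lig4 at the ends, is shown because it came nearest, a choice made after its values were seen. At 60 hpf its CPM were 3.97, 5.10 and 7.86 in Cont, 5.24, 9.93 and 15.1 in XR, 2.15, 6.10 and 10.8 in FA and 6.05, 8.37 and 13.7 in FA + XR, with 11 of 12 irradiated larvae above the unirradiated median. Its effect was log2 0.68 (SE 0.21, adjusted p = 0.139) by edgeR, and it was called by DESeq2 (adjusted p = 0.0456) and by voom with quality weights (0.0986). At 84 hpf it was log2 0.38 (SE 0.18, adjusted p = 0.35). *lig4* gave log2 -0.28 (SE 0.32) and 0.20 (SE 0.35) at 60 and 84 hpf, and *prkdc*, the DNA-dependent kinase that joins Ku on the ends, 0.20 (SE 0.39) and 0.19 (SE 0.35). At 84 hpf the estimates of the 5 end joining genes ran from 0.19 to 0.57, but those of *lig4* and *prkdc* were smaller than their SEs. A common direction over this role was not tested.

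**Figure D2:**
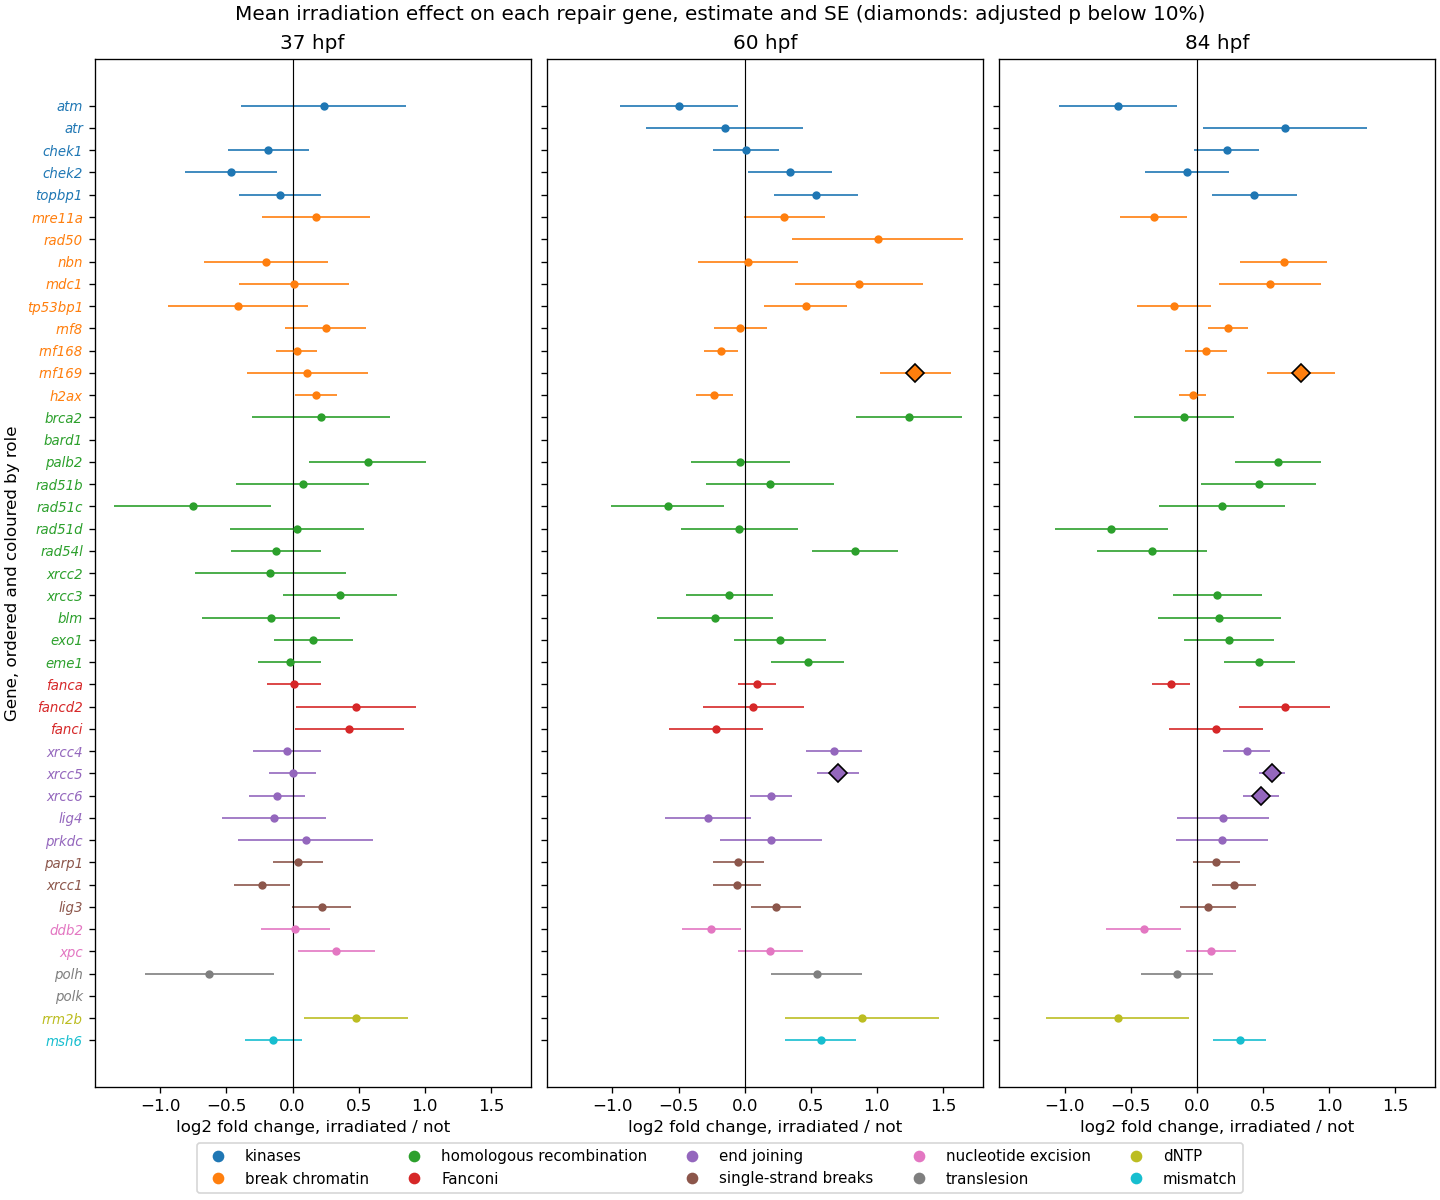
Mean irradiation effect (log2 fold change, irradiated / unirradiated, with SE) for each repair gene at 37, 60 and 84 hpf, ordered and coloured by role, with diamonds for adjusted p below 10% and no point where a gene was not tested. Diamonds stand at *rnf169* and *xrcc5* at 60 hpf and at *rnf169*, *xrcc5* and *xrcc6* at 84 hpf, all to the right of 0.

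Among the checkpoint kinases none was called. The smallest p belonged to *chek2*, the effector kinase of Atm, at 37 hpf (log2 -0.47, SE 0.35) and to *topbp1*, the activator of Atr, at 60 hpf (0.54, SE 0.32) and 84 hpf (0.44, SE 0.32). At 60 hpf *topbp1* was at 2.39, 3.2 and 5.96 CPM in Cont and at 2.91, 5.80 and 7.08 in XR, ranges that overlapped. *atm* itself was scarce, with a mean of 4.6 counts per library and estimates of -0.50 (SE 0.45) at 60 hpf and -0.59 (SE 0.45) at 84 hpf. *chek1*, the effector of Atr, stood at log2 0.01 (SE 0.25) at 60 hpf and 0.23 (SE 0.25) at 84 hpf, and *atr* at -0.15 (SE 0.60) and 0.67 (SE 0.62).

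Of the other genes that act in the chromatin at breaks none was called. *h2ax* gave log2 0.18 (SE 0.16) at 37 hpf, -0.23 (SE 0.14) at 60 hpf and -0.03 (SE 0.10) at 84 hpf. Its counts are uncertain as far as the H2A histone genes are near-identical copies. The ligases *rnf8* and *rnf168* had effects of -0.03 (SE 0.20) and -0.18 (SE 0.13) at 60 hpf and 0.24 (SE 0.15) and 0.07 (SE 0.16) at 84 hpf. *tp53bp1*, which limits resection of broken ends, gave 0.46 (SE 0.32) and -0.17 (SE 0.28). *mdc1* gave 0.86 (SE 0.48) and 0.55 (SE 0.39). In the MRN complex *mre11a*, its nuclease, gave 0.30 (SE 0.31) and -0.33 (SE 0.25), *rad50* 1.00 (SE 0.65) at 60 hpf, and *nbn* 0.66 (SE 0.33, adjusted p = 0.41) at 84 hpf.

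In homologous recombination 0 of 11, 10 and 10 tested genes were called at 37, 60 and 84 hpf. The smallest p belonged to *palb2* at 37 hpf (log2 0.57, SE 0.44) and 84 hpf (0.62, SE 0.33), and to *brca2*, a central mediator of recombination, at 60 hpf. In human cells PALB2 bridges BRCA1 and BRCA2. At 60 hpf *brca2* was at 0, 0.435 and 2.63 CPM in Cont, 2.04, 3.81 and 6.29 in XR, 0, 0.912 and 2.37 in FA and 0.269, 2.73 and 3.46 in FA + XR. Of the 12 irradiated larvae 11 were above the unirradiated median and 8 above its maximum. Its effect of log2 1.24 (SE 0.40) missed the threshold by edgeR (adjusted p = 0.15). Of 6 alternatives it passed only with voom and quality weights (log2 1.49, adjusted p = 0.00737). Over these the adjusted p reached 0.236, and the lowest estimate was log2 0.975, without the low-depth libraries. Of 24 fits leaving out 1 library, 22 did not call it, with adjusted p up to 0.244. The other 2 left out the Cont library of 10806851 counts (adjusted p = 0.0874) or the FA + XR library of 3559535 counts (0.0747). With unirradiated medians of 0.435 and 0.912 CPM, the fold change rests on low levels. At 84 hpf the effect on *brca2* was log2 -0.10 (SE 0.38). *rad54l*, which encodes a DNA-dependent motor protein, gave 0.83 (SE 0.32, adjusted p = 0.28) at 60 hpf and -0.34 (SE 0.42) at 84 hpf. The other 8 tested genes ran at 60 hpf from *rad51c* (-0.58, SE 0.43) to *eme1* (0.48, SE 0.28), and at 84 hpf *rad51d* had the lowest estimate of the role (-0.65, SE 0.43). *blm* encodes a helicase and *exo1* a nuclease that resects ends.

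The other roles held no called gene either. In the Fanconi anemia pathway, which repairs cross-links, the smallest p belonged to *fancd2* at 37 hpf (log2 0.48, SE 0.45) and 84 hpf (0.66, SE 0.34, adjusted p = 0.43) and to *fanca* at 60 hpf (0.09, SE 0.14), and *fanci*, the partner of *fancd2*, gave -0.21 (SE 0.36) at 60 hpf. In single-strand break repair it belonged to the scaffold gene *xrcc1* at 37 hpf (-0.23, SE 0.21) and 84 hpf (0.28, SE 0.17) and to the ligase gene *lig3* at 60 hpf (0.24, SE 0.19), while *parp1* gave -0.05 (SE 0.20) at 60 hpf. In nucleotide excision repair it belonged to *xpc*, a damage sensor, at 37 hpf (0.33, SE 0.29) and to *ddb2*, which binds ultraviolet lesions and is a p53 target in human cells, at 60 hpf (-0.25, SE 0.22) and 84 hpf (-0.40, SE 0.28). The translesion polymerase gene *polh* gave -0.63 (SE 0.49), 0.54 (SE 0.34) and -0.15 (SE 0.27) at the 3 times. *rrm2b*, the p53-inducible subunit of ribonucleotide reductase in human cells, gave 0.48 (SE 0.39), 0.88 (SE 0.58) and -0.60 (SE 0.54), and its reads may be shared with *rrm2*. *msh6*, a mismatch sensor, gave -0.14 (SE 0.22), 0.57 (SE 0.27, adjusted p = 0.45) and 0.32 (SE 0.20).

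**Figure D3:**
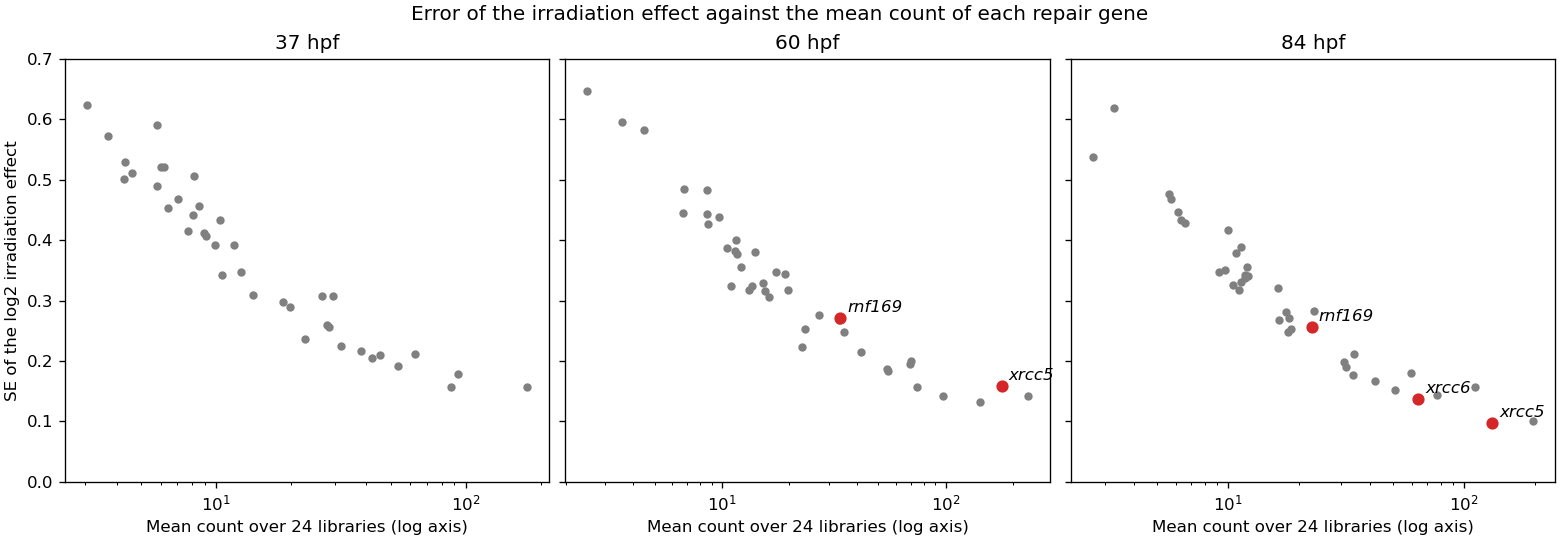
Standard error of the log2 irradiation effect (vertical axis) against the mean count over the 24 libraries of a time point (horizontal log axis) for each tested repair gene, with called genes in red. Members with a mean count under 10 had median SEs of 0.496, 0.483 and 0.447 at 37, 60 and 84 hpf, and those with 50 or more had 0.178, 0.158 and 0.143.

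How small a difference could be seen depended on the counts. At 60 hpf the 9 members with a mean count under 10 had SEs from 0.427 to 0.647 and the 9 members with 50 or more had SEs from 0.132 to 0.201. For *atr* (SE 0.60) or *rad50* (SE 0.65) a change of the size seen for *xrcc5* (log2 0.70) was therefore not detectable at this depth, and their estimates do not show that they stayed constant.

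The levels without and with FA were also compared. XR vs. Cont and FA + XR vs. FA share no library. Over the members their log2 effects had Pearson's r of -0.25 at 37 hpf, 0.34 at 60 hpf and 0.15 at 84 hpf, beside 0.05, 0.14 and 0.22 over all genes, across genes that are not independent. Both effects had the same sign in 11 of 39 members (28.2%), 23 of 40 (57.5%) and 28 of 39 (71.8%), beside 49.3%, 53.3% and 56.5% over all genes. XR vs. Cont called 0, 1 and 1 member at these times (all genes, 0.104%, 0.404% and 1.69%) and FA + XR vs. FA 0, 1 and 1 (all genes, 0.118%, 1.43% and 1.04%). The 1.43% stands for 234 genes, a count that ran from 28 in the fit of 12 libraries to 947 with DESeq2. For both at 37 hpf, members with an unadjusted p below 0.05 numbered 1 and 0 by edgeR and 2 and 1 by DESeq2, which called none.

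**Figure D4:**
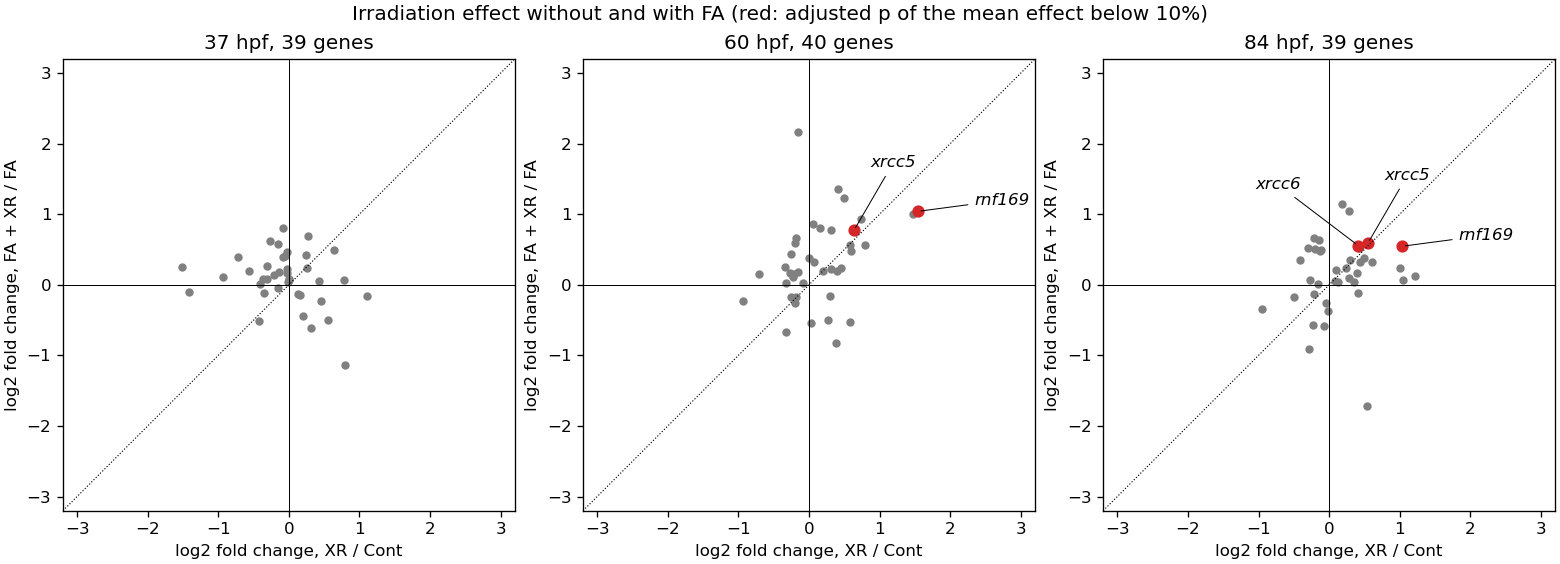
Log2 fold change XR / Cont (horizontal) against FA + XR / FA (vertical) for the tested repair genes at 37, 60 and 84 hpf, with a dotted line of equality and red points where the mean effect has an adjusted p below 10%. The red points lie above 0 on both axes, a position favoured by their choice, which used the mean of both effects. The other members scatter on both sides of 0.

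The test of the difference between both effects, the FA by XR interaction, called 0 members at 37, 60 and 84 hpf (all genes, 0% at each time), with 1, 2 and 3 members at an unadjusted p below 0.05 by edgeR and the same numbers by DESeq2, which called none. For the called genes the interaction did not exceed its error. It was log2 -0.50 (SE 0.54) for *rnf169* and 0.13 (SE 0.32) for *xrcc5* at 60 hpf, and -0.49 (SE 0.51) for *rnf169*, 0.04 (SE 0.19) for *xrcc5* and 0.14 (SE 0.27) for *xrcc6* at 84 hpf. These errors leave room for differences in either direction. FA vs. Cont called 0 members (all genes, 0%, 1.45% and 0.0248%), with 0, 2 and 1 at an unadjusted p below 0.05. FA + XR vs. XR called 0 (all genes, 0%, 0% and 0.0062%), with 0, 0 and 2. DESeq2 called *fanca* in FA vs. Cont at 60 hpf (log2 -0.63, adjusted p = 0.0307), and edgeR did not (log2 -0.64, SE 0.21, adjusted p = 0.134). Its CPM were 14.3, 23.1 and 25.8 in Cont, 11.6, 12.7 and 22.3 in FA, 12.6, 18.3 and 25.9 in XR and 16.2, 18.5 and 22.3 in FA + XR. *h2ax* at 84 hpf had the smallest interaction p among members (log2 0.78, SE 0.20, unadjusted p = 0.00045, adjusted p = 0.807). It was at 36.8, 51.6 and 60.6 CPM in Cont, 22.1, 38.7 and 44.1 in XR, 23.5, 37.1 and 41.9 in FA and 39.7, 45.1 and 54 in FA + XR.

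Whether the irradiation effect changed with time was tested in a fit of all 96 libraries. From 37 to 60 hpf 0 of 39 members were called (all genes, 0.637%), with 6 at an unadjusted p below 0.05 by edgeR. The effect of *xrcc5* was larger at 60 hpf by log2 0.70 (SE 0.21, adjusted p = 0.154). DESeq2 called it (log2 0.65, adjusted p = 0.0354), and so did edgeR without the low-depth libraries (0.59, adjusted p = 0.0935), where *h2ax* was called as well (-0.51, adjusted p = 0.0969). For *rnf169* the difference was log2 1.16 (SE 0.51, adjusted p = 0.445). From 60 to 84 hpf 0 members were called (all genes, 0.14%), 3 at an unadjusted p below 0.05 by edgeR and by DESeq2.

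Changes with age were tested in untreated larvae. From 37 to 60 hpf 9 of 39 members were called in Cont (all genes, 30.8%), and 30 members did not pass. Of the called members 8 were lower (all genes, 14.3%) and 1 was higher (16.5%), and the alternatives called 6 to 8. The largest fall was that of *rrm2b*, from a median of 2.20 CPM to 0.707 (log2 -2.18, SE 0.71, adjusted p = 0.0145). It rests on few counts, with medians of 5 at 37 hpf and 1.5 at 60 hpf. *msh6* fell from 12 to 4.06 CPM (log2 -1.39, SE 0.33, adjusted p = 0.000607). *ddb2* fell from 10.8 to 4.31 (log2 -1.17, SE 0.38), *xrcc4* from 10.5 to 5.10 (-0.94, SE 0.29) and *xrcc6* from 21.4 to 12 (-0.78, SE 0.23). The effector kinase genes *chek1* (-0.91, SE 0.38, adjusted p = 0.0621) and *chek2* (-0.96, SE 0.43, 0.0961) and *eme1*, a subunit of a junction nuclease (-0.76, SE 0.33, 0.0775), passed narrowly. *chek2* (adjusted p from 0.131 to 0.386) and *eme1* (0.109 to 0.188) were lost with each of DESeq2, RLE, no filter and no low-depth libraries, and *chek1* with the last 2 (0.128 and 0.151). *fanca* rose from a median of 11.7 to 23.1 CPM (log2 0.81, SE 0.26, adjusted p = 0.0128). *rnf8*, not called here, was called higher by DESeq2 (log2 0.79, adjusted p = 0.0627) and with RLE (0.77, 0.0799).

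The median change over the 39 members was log2 -0.35, beside 0.08 over all genes and -0.61 over 29 cell cycle genes, of which 19 fell. Scaling by RLE in place of TMM moved the median of all genes in this comparison from 0.08 to 0.18. The largest estimate in recombination was that of *xrcc2* (log2 -1.29, SE 0.96, adjusted p = 0.36), at 0 counts in 3 of 6 Cont larvae at 37 hpf and in 2 of 6 at 60 hpf.

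In XR larvae 9 of 39 members were called over the same interval (all genes, 33.8%), 6 lower (15.8%) and 3 higher (17.9%). *rrm2b* (log2 -2.87, SE 0.65), *msh6* (-1.16, SE 0.31) and *ddb2* (-1.03, SE 0.38) fell here too, as did *xrcc2* (-2.75, SE 0.97), *parp1*, the sensor of single-strand breaks (-0.64, SE 0.27), and *h2ax* (-0.45, SE 0.19). The mean count of *xrcc2* over all groups was 3.71 at 37 hpf and 1.67 at 60 hpf, so its fall rests on few counts. *rnf169* (1.73, SE 0.50), *tp53bp1* (1.72, SE 0.60) and *polh* (1.29, SE 0.58) rose. *polh* was not called without a filter (adjusted p = 0.106) or without the low-depth libraries (0.135). *parp1* (adjusted p from 0.114 to 0.149) and *h2ax* (0.137 to 0.20) were not called by DESeq2, with RLE or without a filter, and of these 4 alternatives were called only without the low-depth libraries. *fanca*, not among the 9, was called higher in XR by DESeq2 (log2 0.65, adjusted p = 0.0382), with RLE (0.65, 0.0446) and without a filter (0.62, 0.0907). *xrcc4* and *xrcc6* fell in Cont and were not called in XR, and the difference between the intervals in XR and in Cont alone was not tested.

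From 36 to 37 hpf 0 members were called in Cont (all genes, 0%) and in XR (1.2%), with 3 and 6 at an unadjusted p below 0.05 by edgeR. From 60 to 84 hpf 0 were called in Cont (7.2%) and in XR (4.33%), with 2 and 1. The largest Cont estimates of that interval by role were *nbn* (log2 0.74, SE 0.51), *polh* (0.52, SE 0.49) and *lig3* (-0.55, SE 0.27).

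**Figure D5:**
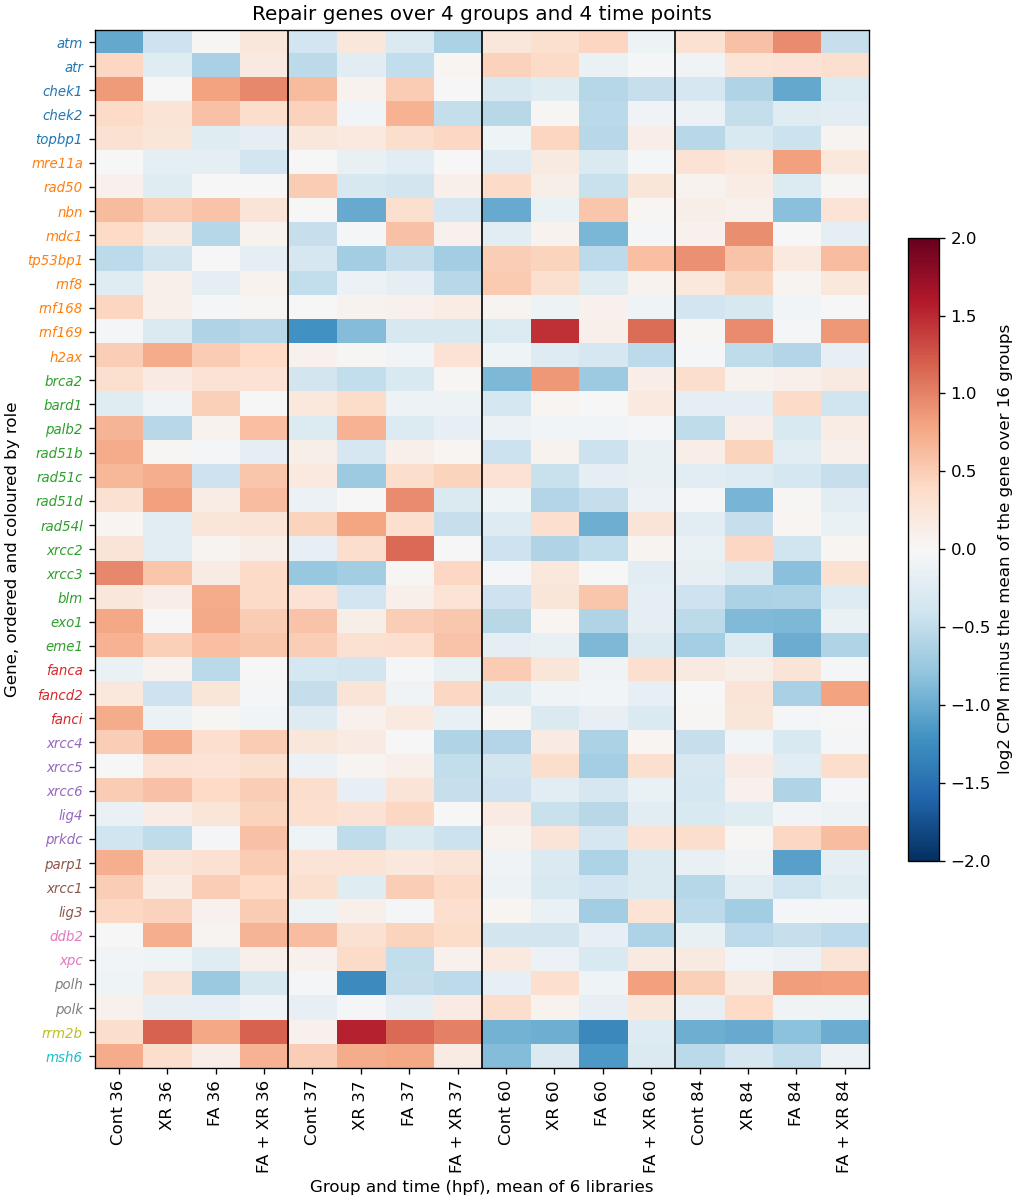
Mean log2 CPM of each of the 43 repair genes in 16 groups (6 libraries each), less the mean of the gene over the groups, with columns ordered by time (hpf) and then by group and genes coloured by role. *rrm2b* and *msh6* are red at 36 and 37 hpf and blue at 60 and 84 hpf, and *rnf169* is reddest in XR and FA + XR at 60 hpf.

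Since many repair genes are transcribed in dividing cells, the members were set beside the mean of 32 cell cycle genes over the 16 group means of log2 CPM. Pearson's r ran from -0.60 for *atm* to 0.91 for *chek1*, with a median of 0.44, and was above 0.5 for 18 of 43 members and below -0.5 for 3. It was 0.90 for *xrcc6*, 0.43 for *xrcc5* and -0.51 for *rnf169*. These values are descriptions over group means that share time points, libraries and scaling. After irradiation 6 of the 32 listed cell cycle genes were lower at 37 hpf (all genes, 21 of 14380 tested). Among them were *aurka* (log2 -1.17, SE 0.17) and *cdc20* (-1.01, SE 0.16). The summed level of the list at 37 hpf ran from 1500 to 2430 CPM in Cont, 1130 to 1920 in XR, 1860 to 2340 in FA and 568 to 2050 in FA + XR. Low-depth libraries at that time were in Cont, XR and FA + XR but not in FA, and the part of depth in these calls was not tested. None of the listed genes was called at 60 hpf. *pcna* (0.41, SE 0.088) and *tyms* (0.35, SE 0.11), genes of DNA synthesis, were higher at 84 hpf (all genes, 1.83%). The summed level of the cell cycle list at 84 hpf ran from 759 to 977 CPM in Cont, from 748 to 1020 in XR, from 627 to 870 in FA and from 912 to 983 in FA + XR. Its part in the higher level of *xrcc6* was not tested.

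Beyond the 43 members, a wider list of repair genes with 125 IDs was tested in the same fits. Of its tested genes 0 of 99 were called at 37 hpf, 2 of 107 at 60 hpf and 2 of 106 at 84 hpf, all higher, beside 0.25%, 1.67% and 4.32% of all genes, and their median effects were -0.05, 0.01 and 0.07. They were *parp3*, a polymerase of ADP-ribose that acts at double-strand breaks (log2 1.27, SE 0.22, at 60 hpf and 1.33, SE 0.22, at 84 hpf), *fancl*, the ubiquitin ligase of the Fanconi pathway (1.54, SE 0.40, at 60 hpf), and the polymerase gene *poln* (2.35, SE 0.67, at 84 hpf). Of 23 tested p53 target genes 6 were higher at 37 hpf (all genes, 15 of 14380), 12 at 60 hpf (0.686%) and 10 at 84 hpf (1.83%). All 6 called at 37 hpf are genes that the study named from the same libraries, so the list is no independent evidence of its direction. Of these *mdm2*, *phlda3*, *isg20*, *rps27l* and 1 ID of *gadd45aa* were also among those called at 60 and 84 hpf. *mdm2*, the ubiquitin ligase of p53, was higher by log2 1.61 (SE 0.16) at 37 hpf, 1.86 (SE 0.12) at 60 hpf and 1.67 (SE 0.12) at 84 hpf. *phlda3*, an inhibitor of Akt, was higher by 1.99 (SE 0.22), 2.06 (SE 0.19) and 1.74 (SE 0.14).

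Marker genes of other cell types moved at 84 hpf, the time point with the largest number of called repair genes. Of 34 tested marker IDs 8 were higher after irradiation (all genes, 1.83%), from fast muscle, epidermis and liver. Another 3 were lower (all genes, 401 of 16127). These were 1 ID each of the neuronal genes *snap25a* (log2 -0.59, SE 0.087) and *stmn1b* (-0.45, SE 0.069) and the liver gene *tfa*. The summed level of the 4 liver IDs overlapped between all groups. It ran from 5610 to 7310 CPM in Cont, 4460 to 7660 in FA, 4510 to 7270 in XR and 5360 to 6590 in FA + XR. The summed level of the 6 neuronal IDs ran from 672 to 802 CPM in Cont and from 551 to 743 in FA, and from 523 to 600 in XR and from 486 to 565 in FA + XR. That of the 4 epidermal IDs ran from 10500 to 11900 in Cont, 8630 to 12200 in FA, 10000 to 15400 in XR and 13400 to 16300 in FA + XR. The part of these shifts in the higher levels of *xrcc5*, *xrcc6* and *rnf169* was not tested. At 60 hpf 1 marker, the lens gene *cryba2a*, was called (log2 0.70, SE 0.20), and at 37 hpf none. Summed epidermal levels at 60 hpf ran from 11300 to 19700 CPM in Cont and from 15300 to 38400 in FA. They ran from 14800 to 16200 in XR and from 16200 to 28500 in FA + XR. Liver levels ran from 5190 to 9700 in Cont and from 6000 to 18700 in FA. Neuronal levels ran from 582 to 771 in Cont and from 435 to 751 in FA. The part of this spread in the calls at 60 hpf was not tested.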

How the data were processed

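Reads (150-bp paired-end, whole-body RNA of single larvae) were quantified by the authors on Ensembl's cDNA sequences for GRCz11. The deposited table gives counts per gene without normalization. The quantifier is not given in the sources used here. The 3 values that are not whole, possibly expected counts, were deposited in that form by the authors and were rounded. The sources label the columns only as counts and do not say whether the authors' quantification gave expected counts. Each column was assigned to its group through the authors' table of libraries. Symbols came from a reference table for 23608 of 25907 IDs.

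Tests, on genes whose mean count reached 2.5, used edgeR 4.0.16 (R 4.3.3), with TMM factors and the quasi-likelihood F test, on the 24 libraries of a time point or, for changes with time, on all 96. The SE is the size of the log2 fold change divided by the square root of F. A call needs a Benjamini-Hochberg adjusted p below 10%, the threshold of the study. CPM use TMM factors over all libraries, and log2 CPM a prior count of 2. Alternatives were DESeq2 1.42.0, RLE factors, no filter, filterByExpr, a threshold of 5%, leaving out low-depth libraries (total under 50% of the median at that time), fits of 12 libraries and leaving out each library in turn. A further alternative, chosen after seeing the data, was limma 3.58.1 (voom, sample quality weights). Total counts ran from 1985483 to 10094251 at 36 hpf, 243126 to 10769522 at 37 hpf, 767872 to 16470291 at 60 hpf and 423265 to 8530530 at 84 hpf, and low counts limit the precision.

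The members and lists were chosen with earlier results of these data known. Members were named where called, where they had the smallest p of their role in the mean irradiation effect, or where they had the largest change of their role in Cont, and up to 5 called genes of the other lists could be named. Figures used Python 3.11.15.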

Additional observations from a re-analysis of the deposited data

Results flagged for a closer look

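The values of *rnf169*, *xrcc5* and *xrcc6* were screened for a larva far from the other 5 of its group, by Dixon's criterion. Of 48 sets 6 held such a larva, where about 2 would be found by chance with normal values in independent sets. Counts here are low, library depth is uneven and the genes share larvae, so the excess was not read as a result. At 36 hpf *rnf169* was at 8.89 CPM in 1 FA larva (26 counts) with the next at 2.98, and *xrcc5* was at 55.4 CPM in 1 XR larva (185 counts) with the next at 36.1. At 37 hpf *xrcc6* was at 2.96 CPM in the XR library of 581706 counts (2 counts) with the next at 17.5. It was at 0 CPM in the FA + XR library of 243126 counts with the next at 18.1. At 60 hpf *xrcc6* was at 21.5 CPM in 1 FA larva with the next at 13.6. At 84 hpf *rnf169* was at 12 CPM in the FA + XR library of 3559299 counts (54 counts) with the next at 6.52, and without this library the irradiation effect at 84 hpf was log2 0.65 (adjusted p = 0.224) in place of 0.79 (0.0885).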

How the results depend on the processing

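The mean irradiation effect on *rnf169* and *xrcc5* at 60 hpf and on *xrcc5* and *xrcc6* at 84 hpf was called by every alternative run and in all 24 fits that left out 1 library, with log2 effects in these fits of 1.21 to 1.41, 0.64 to 0.82, 0.53 to 0.60 and 0.44 to 0.55. Leaving out 1 library gave 0 members called at 37 hpf, 2 to 3 at 60 hpf and 2 to 3 at 84 hpf, and 31 to 54, 187 to 456 and 572 to 829 genes, the 456 without the FA library of 3075416 counts. Members called in the mean effect at 60 hpf numbered 4 with voom, where 2 were called by edgeR. In XR vs. Cont at 60 hpf there were 0 at a threshold of 5%, 0 without low-depth libraries and 2 with voom, where edgeR called 1, and at 84 hpf there were 2 with DESeq2, where edgeR called 1. In FA + XR vs. FA at 60 hpf there were 0 at 5%, 0 without a filter, 0 in the fit of 12 libraries and 3 with voom, where edgeR called 1. DESeq2 called 1 in FA vs. Cont at 60 hpf, 1 in XR from 36 to 37 hpf (*h2ax*) and 1 in the difference of effects from 37 to 60 hpf, for which 2 were called without low-depth libraries, all where edgeR called 0.

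Genes called in the mean effect, over all genes, numbered 5 with DESeq2 and 6 without a filter at 36 hpf (edgeR 0), 62 without a filter, 75 without low-depth libraries and 88 with voom at 37 hpf (edgeR 36), and 571 with DESeq2, 174 at 5%, 549 without low-depth libraries and 648 with voom at 60 hpf (edgeR 272). Without low-depth libraries the uncalled estimates of *xrcc6* (0.0778) and *xrcc1* (0.0321) at 37 hpf changed sign. RLE moved the share of higher calls from 58% to 38.6% in the difference of effects from 37 to 60 hpf and from 61.1% to 72.9% in XR from 60 to 84 hpf. FA vs. Cont at 60 hpf had 237 calls by edgeR, 1049 by DESeq2, 0 with voom and 0 without low-depth libraries. The causes of these changes were not tested. The relation with the cell cycle list kept a median r of 0.44 with a prior count of 0.5 and without low-depth libraries, but the members below -0.5 numbered 2 and 8 in these, in place of 3.

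No paired analysis was possible because no replicate number is given for the columns of counts. Depth limits the scarce members: those with a mean count under 10 had SEs of at least 0.348 at every time tested.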
